A study of Mus musculus with 2 samples.

Results

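The HOX genes are the members of the Hoxa, Hoxb, Hoxc and Hoxd clusters of the mouse genome. Members were taken as every gene row whose symbol is Hoxa, Hoxb, Hoxc or Hoxd followed by a number, and 39 of the 19070 genes in the files met that rule. There were 11 Hoxa genes, 10 Hoxb genes, 9 Hoxc genes and 9 Hoxd genes. They were described in single cells of subcutaneous Lewis lung carcinoma (LLC) tumours, a mouse lung cancer line grown in mice, in 1 library from mice given an anti-PD-1 antibody and 1 library from mice given an IgG2a isotype antibody (the control library). PD-1 restrains T cells. According to the series text, the anti-PD-1 sample holds cells that survived to day 7 from treatment, with no time given for the control. It calls the control cells untreated while the sample label names the isotype antibody. The strain, age and number of mice, and whether animals were pooled, are not given in the sources used here. With 1 library per group there is no replicate check and no p-value. The differences compare 2 libraries, in which treatment, animal, preparation and time of collection cannot be told apart.

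HOX genes encode transcription factors with a homeodomain, which binds DNA. They lie in clusters in which the order of the genes follows where, along the head-to-tail axis of the embryo, each gene is switched on, and low-numbered genes are used towards the head and high-numbered genes towards the tail. Genes with the same number in different clusters are paralogs. Adult connective tissue cells keep a pattern of HOX expression that records their place in the body, blood stem cells and leukaemias use several Hoxa and Hoxb genes, and PBX and MEIS proteins bind DNA together with HOX proteins. Trithorax proteins keep HOX genes active and Polycomb proteins keep them silent.

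On the mm10 build the Hoxa cluster lies on chromosome 6, the Hoxb cluster spans chr11:96194316-96368256, the Hoxc cluster chr15:102921103-103036852 and the Hoxd cluster chr2:74668310-74765142, and all 39 genes are annotated as protein coding. The promoter sequences below stand on both sides of the place where the tumour cells' HOX expression stopped within a cluster. Hoxd10, which helps to specify hindlimb motor neurons, had 19.9 CPM (UMIs per 1000000 UMIs of the cells) in anti-PD-1 tumour cells and 20.9 CPM in control tumour cells, and its neighbour Hoxd11 had 0.0405 and 0.19 CPM. Hoxa11, needed for the forearm bones and the uterus, had 3.55 CPM in anti-PD-1 tumour cells and 9.77 CPM in control tumour cells, and the next gene of the cluster, Hoxa13, needed for the hand and the urogenital tract, had 0.0405 and 0.148 CPM. Each sequence is the 250 bases before the gene's first base in RefSeq (GRCm38.p6), 5' to 3' on the gene's strand, with CpG dinucleotides in capitals. Hoxd10 lies on the plus strand at chr2:74691641-74691890, Hoxd11 on the plus strand at chr2:74679308-74679557, Hoxa11 on the minus strand at chr6:52245811-52246060 and Hoxa13 on the minus strand at chr6:52260881-52261130.
Hoxd10: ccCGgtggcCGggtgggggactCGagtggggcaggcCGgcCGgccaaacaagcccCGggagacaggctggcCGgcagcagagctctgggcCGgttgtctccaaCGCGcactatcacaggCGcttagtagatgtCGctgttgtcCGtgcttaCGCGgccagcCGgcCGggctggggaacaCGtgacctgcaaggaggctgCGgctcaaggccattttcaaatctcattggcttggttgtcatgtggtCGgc
Hoxd11: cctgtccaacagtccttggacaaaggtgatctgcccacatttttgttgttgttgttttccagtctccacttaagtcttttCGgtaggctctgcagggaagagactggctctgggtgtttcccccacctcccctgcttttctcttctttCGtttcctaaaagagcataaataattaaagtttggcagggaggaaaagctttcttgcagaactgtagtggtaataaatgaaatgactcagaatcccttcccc
Hoxa11: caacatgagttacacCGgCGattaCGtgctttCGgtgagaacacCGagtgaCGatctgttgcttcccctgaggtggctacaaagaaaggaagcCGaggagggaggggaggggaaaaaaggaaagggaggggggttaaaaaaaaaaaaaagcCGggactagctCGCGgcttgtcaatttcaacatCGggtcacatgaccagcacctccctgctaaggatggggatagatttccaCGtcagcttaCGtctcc
Hoxa13: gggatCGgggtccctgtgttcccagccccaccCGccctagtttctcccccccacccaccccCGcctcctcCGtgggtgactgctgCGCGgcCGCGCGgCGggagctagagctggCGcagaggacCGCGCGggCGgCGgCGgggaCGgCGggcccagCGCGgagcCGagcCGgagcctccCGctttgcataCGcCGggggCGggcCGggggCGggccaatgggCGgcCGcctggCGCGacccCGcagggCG

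RefSeq promoters were found for 22 of the 39 genes (24 promoters). These had a median of 12.5 CpG dinucleotides in 250 bases, against 6 over 32851 promoters of all genes. CpG number did not sort expressed from silent HOX genes in these tumour cells: the 8 promoters of genes at 5 CPM or more in tumour cells of both libraries held 3 to 20 CpG (median 12), and the 7 promoters of genes under 0.5 CPM held 2 to 35 (median 20). Hoxa13 had 35 and was nearly silent, Hoxa11 had 13, Hoxd10 had 20 and the first Hoxd11 promoter had 2, while a second, internal Hoxd11 promoter had 20. The PBX-HOX motif TGATNNAT, searched on both strands, was in 4 of the 24 HOX promoters (16.7%) and in 7.68% of all promoters. The MEIS motif TGACAG was in 2 of 24 (8.33%) and in 15.9% of all. Of the 8 Hoxa genes described below as lower in the anti-PD-1 library, 7 have promoters in the table, and Hoxa3 alone among them held a match to either motif (TGACAG). A match is a description of letters and shows no binding.

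Cells were placed in classes by the summed UMIs of marker genes. Tumour cells needed 500 CPM of Hmga2, Igf2bp1, Igf2bp2, Igf2bp3 and Wnt7b, fibroblasts 2000 CPM of 12 markers such as Pdgfra and Dcn, endothelial cells 1500 CPM of 12 markers such as Pecam1 and Cdh5, and immune cells 3000 CPM of 9 markers such as Ptprc. These cuts were set after looking at the data and cut a range: 790 anti-PD-1 and 787 control cells lay within 1.25-fold of the tumour cut, 296 and 297 of the fibroblast cut, 105 and 204 of the endothelial cut and 315 and 604 of the immune cut. Near the fibroblast and endothelial cuts there were more cells than in those classes. There were 5739 anti-PD-1 and 4184 control tumour cells, 293 and 169 fibroblasts, 26 and 57 endothelial cells and 1832 and 1697 immune cells, while 1532 and 2288 kept cells fell in no class or in several. The median tumour cell had 13333 UMIs in the anti-PD-1 library and 16507.5 in the control library, and the median immune cell 2327.5 and 2152. Each class led in its own markers: Hmga2 was at 866 and 768 CPM in tumour cells and 104 and 109 CPM in fibroblasts, and Dcn at 2148 and 2156 CPM in fibroblasts against 110 and 99.6 CPM in tumour cells. Tumour cells also held Pdgfra at 187 and 107 CPM, so the line between tumour cells and fibroblasts is not sharp. RNA of red cell genes was lower in anti-PD-1 tumour cells, at 57.3 CPM, than in control tumour cells, at 619 CPM. The libraries share 107 barcode sequences.

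At 5 CPM or more in both libraries, tumour cells held a continuous middle stretch of the Hoxb, Hoxc and Hoxd clusters. Of the Hoxa cluster, Hoxa9 alone passed in both libraries, and this rested on the cut. Hoxa9 had 5.04 CPM in anti-PD-1 tumour cells, and its exact Poisson 95% interval held 5 CPM. Hoxa3, Hoxa5, Hoxa7, Hoxa10 and Hoxa11 also passed in control tumour cells, at 5.54 to 9.77 CPM. In anti-PD-1 tumour cells these genes were not absent but had 2.66 to 3.55 CPM. Of the 39 genes, 17 reached 5 CPM in tumour cells of both libraries (43.6%), where 52.5% of all genes did. They were Hoxa9, Hoxb4 to Hoxb9, Hoxc5 to Hoxc10 and Hoxd3 to Hoxd10. HOX genes summed to 759.3 CPM in anti-PD-1 tumour cells (exact Poisson 95% interval 753.9 to 764.8, for counting error only, as for all intervals here) and 735 CPM in control tumour cells (730 to 741). When each cell was thinned to 5000 UMIs, 95.6% of anti-PD-1 and 96.2% of control tumour cells held a HOX UMI, and 83.6% and 83.9% held UMIs of at least 2 HOX genes.

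Levels in tumour cells were near 0 for the tail-end genes of each cluster. Levels depend on probe binding, and its part in these boundaries was not tested. Hoxb9 had 5.61 CPM in anti-PD-1 and 9.15 CPM in control tumour cells, while Hoxb13, best known from the prostate, had 0 UMIs and 5 UMIs. Hoxc10, a gene of the lumbar spinal cord, had 25.8 and 25.3 CPM, while Hoxc11, Hoxc12 and Hoxc13, the last of them needed for hair, had no more than 0.0527 CPM in either library. Beyond Hoxd10, the genes Hoxd11, Hoxd12 and Hoxd13 had at most 0.202 CPM in anti-PD-1 and 0.348 CPM in control tumour cells. The head-end genes Hoxb1 and Hoxd1, of which Hoxb1 marks a segment of the hindbrain, had at most 0.0607 CPM in anti-PD-1 and 0.0527 CPM in control tumour cells. Hoxa2, a gene of the hindbrain and second pharyngeal arch, was low, with 0.708 CPM in anti-PD-1 tumour cells and 1.36 CPM in control tumour cells. Fibroblasts had similar boundaries: Hoxb13, Hoxc11, Hoxc12, Hoxc13, Hoxd1, Hoxd11 and Hoxd12 had 0 UMIs in both libraries. A count of 0 allows up to 1.41 CPM in anti-PD-1 and 2.06 CPM in control fibroblasts. Hoxa13 had 5 UMIs (1.91 CPM) in anti-PD-1 and 0 UMIs in control fibroblasts, and Hoxd13 had 1 and 0 UMIs.

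**Figure D1:**
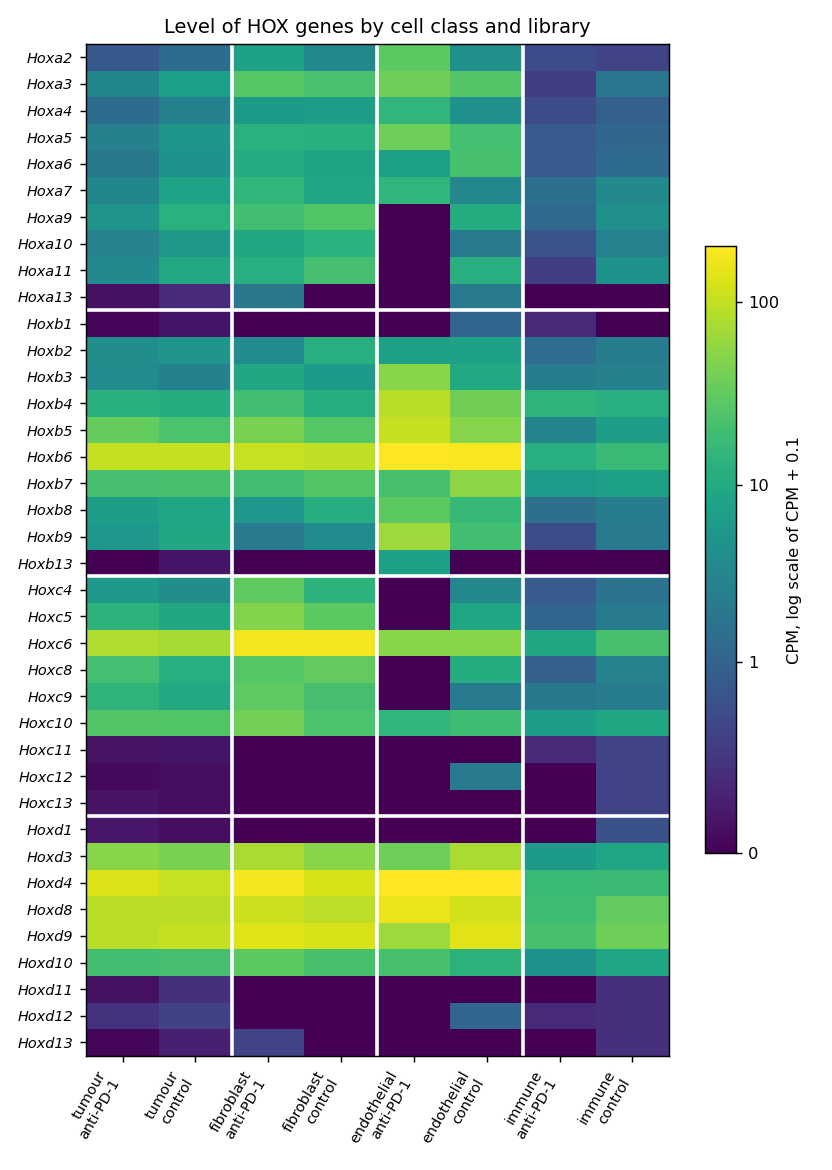
Level of 38 HOX genes (rows, ordered by cluster and number) in 4 cell classes (columns, the anti-PD-1 library left of the control library); colour is CPM on a log scale of CPM + 0.1. Dark purple rows, at the ends of the clusters, are genes near 0 in tumour cells, and 25 of the 27 measured genes are over 2-fold lower in immune than in tumour columns.

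The Hoxa cluster was lower in tumour cells of the anti-PD-1 library, and the other clusters were not. Summed Hoxa was 25.2 CPM in anti-PD-1 and 58.9 CPM in control tumour cells, a log2 ratio (anti-PD-1 over control, as for all library ratios here) of -1.23 with an interval of -1.30 to -1.16. Summed Hoxb was 188 and 183 CPM (log2 ratio 0.04, interval 0.01 to 0.07), summed Hoxc 160 and 131 CPM (0.29, 0.26 to 0.33) and summed Hoxd 385 and 363 CPM (0.09, 0.07 to 0.11). Hoxa genes gave 3.32% of all HOX UMIs in anti-PD-1 tumour cells and 8.02% in control tumour cells. Of the 29 HOX genes with at least 100 UMIs over both libraries, 8 were over 2-fold lower in anti-PD-1 tumour cells, where 3.77% of all genes were, and 0 were over 2-fold higher, where 0.75% of all genes were. All 8 were Hoxa genes: Hoxa3, Hoxa4, Hoxa5, Hoxa6, Hoxa7, Hoxa9, Hoxa10 and Hoxa11. Hoxa4 lay just past 2-fold at -1.01 and Hoxa2 just short of it at -0.94. The count was 5 of 29 with the marker cuts halved and 1 of 18 measured genes with cells thinned to 1500 UMIs. The median log2 ratio over the 29 HOX genes was -0.07, and over all genes tested -0.01.

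The head-half Hoxa genes moved by similar amounts. Hoxa3, which patterns the pharynx and thymus, had 3.13 CPM in anti-PD-1 and 7.17 CPM in control tumour cells (log2 ratio -1.20). Hoxa4 had 1.37 and 2.74 CPM (-1.01, -1.32 to -0.70). Hoxa5, needed for lung and airway development, had 2.66 CPM in anti-PD-1 and 5.54 CPM in control tumour cells (-1.06, -1.28 to -0.84). Hoxa6 had 2.06 and 4.86 CPM (-1.24). Hoxa2 was lower by less, at -0.94, on 70 UMIs in anti-PD-1 and 129 UMIs in control tumour cells, and its interval also lay below 0.

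The tail-half Hoxa genes included the widest gaps. Hoxa7, a target of MLL fusion proteins in leukaemia, had 3.20 CPM in anti-PD-1 and 7.90 CPM in control tumour cells (log2 ratio -1.31). Hoxa9, which with Meis1 drives acute myeloid leukaemia in mice, had 5.04 CPM in anti-PD-1 and 12.6 CPM in control tumour cells (-1.33, -1.48 to -1.17). Hoxa10, a uterine and limb gene, had 2.82 and 5.84 CPM (-1.05, -1.26 to -0.84). Hoxa11 had 3.55 and 9.77 CPM (-1.46, -1.64 to -1.28), the lowest ratio of the 29 HOX genes. The 10 measured Hoxa genes all had intervals below 0. Hoxa13, with 4 and 14 UMIs, was too sparse to compare. Hoxa4, Hoxa5 and Hoxa6 lie within the annotated span of Hoxa3 on the same strand and the probe positions are not given in the sources used here, so counts could be shared between these genes.

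**Figure D2:**
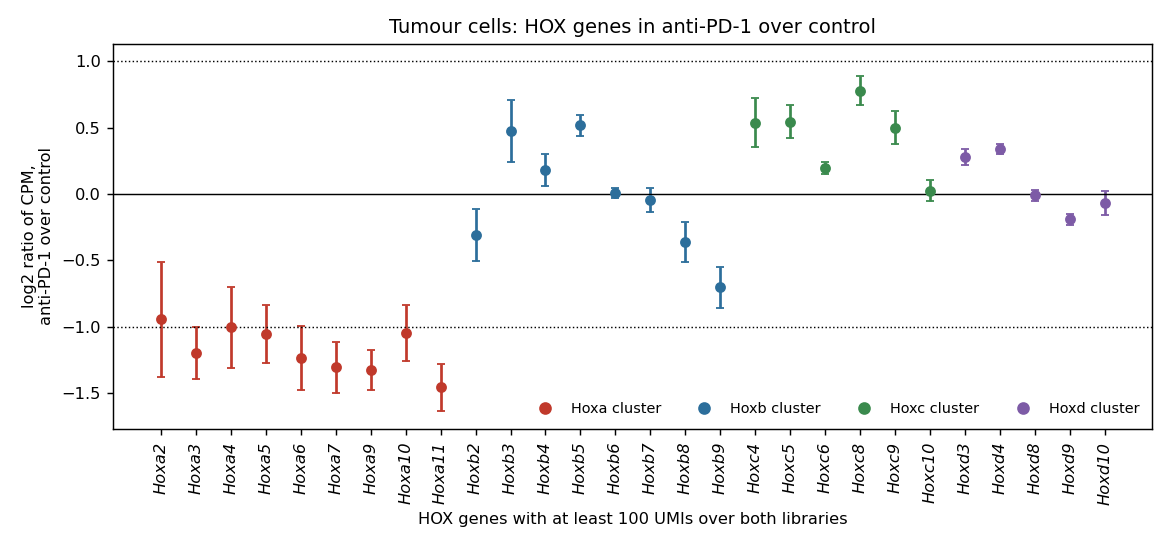
Log2 ratio of CPM, anti-PD-1 over control, in tumour cells for 28 HOX genes with at least 100 UMIs, coloured by cluster; bars are exact 95% intervals for counting error, and dotted lines mark 2-fold. The 9 Hoxa genes drawn lie between -1.46 and -0.94, and the genes of the other clusters between -0.71 and 0.78.

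Hoxc genes were higher in anti-PD-1 tumour cells, by less than 2-fold. Hoxc8, which acts in the brachial spinal cord, had 20.3 CPM in anti-PD-1 and 11.8 CPM in control tumour cells (log2 ratio 0.78, interval 0.67 to 0.89). Hoxc9, a gene of thoracic motor neurons, had 13.7 and 9.70 CPM (0.50). Hoxc4 had 6.03 and 4.16 CPM (0.54), Hoxc5 13.4 and 9.21 CPM (0.55) and Hoxc6 81.0 and 70.7 CPM (0.19). Across the 6 bins of fibroblast marker level, in cells of at least 5000 UMIs, the summed Hoxc ratio was 0.47, 0.23, 0.21, 0.09, -0.02 and -0.06. The order is from lowest to highest level, and from 1000 CPM of fibroblast markers up the intervals spanned 0. With these bins weighted equally it was 0.11. Intervals lay above 0 for these 5 of the 6 measured Hoxc genes, and Hoxc10 stood at 0.03 (-0.05 to 0.11). The annotated span of Hoxc5 covers Hoxc6, Hoxc8 and Hoxc9 on the same strand and overlaps Hoxc10, so the split of counts between them is uncertain.

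Within the Hoxb cluster, Hoxb3, Hoxb4 and Hoxb5 were higher in anti-PD-1 tumour cells, and Hoxb2, Hoxb8 and Hoxb9 were lower. Hoxb3 had 3.77 CPM in anti-PD-1 and 2.71 CPM in control tumour cells (log2 ratio 0.48, interval 0.24 to 0.71). Hoxb4, known for expanding blood stem cells, had 12.3 and 10.8 CPM (0.18, 0.06 to 0.30). Hoxb5, a marker of long-term blood stem cells in mice, had 32.8 CPM in anti-PD-1 and 22.9 CPM in control tumour cells (0.52, 0.44 to 0.60). In the middle of the cluster the libraries were close, with Hoxb6 at 102 and 101 CPM and Hoxb7 at 21.4 and 22.1 CPM. Towards the tail end, Hoxb8, which holds myeloid progenitors in an immature state when overexpressed, had 6.78 and 8.72 CPM (-0.36, -0.51 to -0.22), and Hoxb9 had a log2 ratio of -0.71 (-0.86 to -0.55). Hoxb2, at the head end, was lower as well, with 4.13 and 5.12 CPM (-0.31).

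None of the 5 measured Hoxd genes passed 2-fold between the libraries. Hoxd3 had 51.8 CPM in anti-PD-1 and 42.7 CPM in control tumour cells (log2 ratio 0.28) and Hoxd4, whose annotated span overlaps that of Hoxd3, had 133 and 105 CPM (0.34). Hoxd8 had 90.2 and 90.8 CPM (-0.01) and Hoxd9 90.1 and 103 CPM (-0.19). With Hoxd10 at -0.07, the intervals of Hoxd8 and Hoxd10 spanned 0, those of Hoxd3 and Hoxd4 lay above 0 and that of Hoxd9 below 0. Over all clusters, genes numbered 4 to 8 gave 69.6% of HOX UMIs in anti-PD-1 and 65.1% in control tumour cells, and genes numbered 9 to 13 gave 22.0% and 26.8%.

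The Hoxa difference was present within narrower sets of tumour cells. In cells thinned to 5000 UMIs, 11.2% of anti-PD-1 tumour cells (95% Clopper-Pearson interval 10.4 to 12.1) and 25.0% of control tumour cells (23.7 to 26.4) held a Hoxa UMI. Without thinning the shares were 22.0% and 51.1%. At 1500 UMIs they were 3.92% and 9.75%, while immune cells held a Hoxa UMI in 1.25% and 1.98% of cells. Among tumour cells of 5000 to 10000, 10000 to 20000 and over 20000 UMIs the Hoxa log2 ratios were -1.39, -1.30 and -1.33. The ratio depended on how tumour cells were chosen: with cells picked by 500 CPM of Igf2bp1, Igf2bp2 and Igf2bp3 alone, without Hmga2 and Wnt7b, 394 anti-PD-1 and 387 control cells remained, the Hoxa log2 ratio was -0.67, and Hoxc8 passed 2-fold higher at 1.44. In those cells Hoxa9 was the Hoxa gene with enough UMIs to compare, at -0.69, so 0 of 14 measured HOX genes were over 2-fold lower.

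Hoxa expression was higher in cells with more fibroblast marker RNA among tumour cells of both libraries. In cells of at least 5000 UMIs, Hoxa summed to 17.9 CPM in anti-PD-1 cells with under 100 CPM of fibroblast markers and 90.5 CPM in those with 2000 CPM or more, a fold of 5.06, and to 25.0 and 122 CPM in control cells, a fold of 4.89. The same folds were 1.85 and 2.67 for Hoxc, 1.45 and 1.48 for Hoxd and 1.14 and 1.25 for Hoxb. Across the 6 bins of fibroblast marker level, from lowest to highest, the Hoxa log2 ratio of anti-PD-1 over control was -0.49, -1.54, -1.90, -1.59, -0.99 and -0.44. Every one of these 6 intervals lay below 0. Fibroblast markers themselves were higher in anti-PD-1 tumour cells, with a summed level of 508 CPM against 391 CPM in control tumour cells. All 12 markers were detected, and their part in the Hoxa level was not tested. With the bins weighted equally the Hoxa log2 ratio was -1.04, and that of all HOX genes together turned from 0.05 to -0.04.

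**Figure D3:**
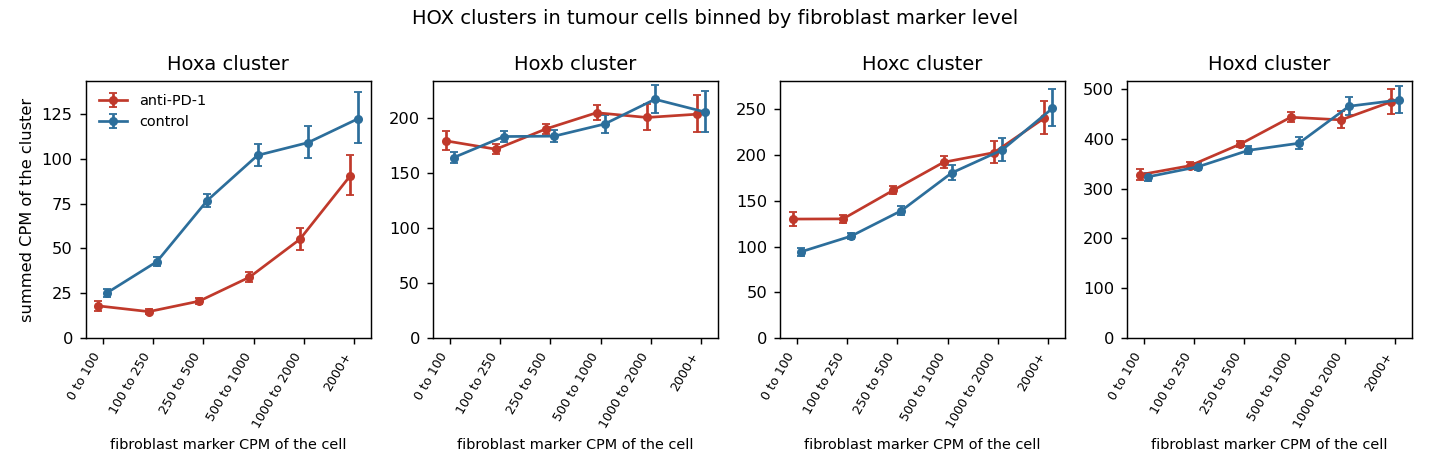
Summed CPM of each HOX cluster (y axis, from 0) in tumour cells of at least 5000 UMIs, binned by the cell's fibroblast marker CPM (x axis), for the anti-PD-1 and control libraries; bars are exact Poisson 95% intervals. Hoxa runs from 17.9 to 90.5 CPM in the anti-PD-1 library and from 25.0 to 122 CPM in the control library, and the anti-PD-1 points lie below the control points in every bin.

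Tumour cells that also passed the fibroblast cut, 282 in the anti-PD-1 and 190 in the control library, had the same tilt gene by gene. Set against the other tumour cells of their library, 6 of 27 measured HOX genes were over 2-fold higher in both libraries, where 2.89% of all genes were: Hoxa3, Hoxa5, Hoxa6, Hoxa11, Hoxc4 and Hoxc5. None was over 2-fold lower, where 1.06% of all genes were, and Hoxb8 and Hoxb9 were the genes below 0 in both. Cells that carry both marker sets may be tumour cells, or a tumour cell and a fibroblast under 1 barcode, and these cannot be told apart here. Leaving them out gave a Hoxa log2 ratio of anti-PD-1 over control of -1.31, with 9 of 29 genes over 2-fold lower, where 3.91% of all genes were. Within them Hoxa was at 90.8 CPM in anti-PD-1 and 123 CPM in control cells, and 0 of 13 measured genes were over 2-fold lower or higher, where 0.61% and 0.176% of all genes were. Of the 27 genes, 23 were above 0 in both libraries, where 33.4% of all genes were, and 2 below, where 45.8% were.

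Compared with fibroblasts, tumour cells had less Hoxa and Hoxc RNA and similar Hoxb RNA. Hoxa summed to 25.2 CPM in anti-PD-1 tumour cells and 125 CPM in anti-PD-1 fibroblasts (log2 ratio, tumour over fibroblast, -2.31), and to 58.9 CPM in control tumour cells and 123 CPM in control fibroblasts (-1.06). Hoxc summed to 160 CPM in tumour cells and 351 CPM in fibroblasts of the anti-PD-1 library (-1.13), and to 131 and 297 CPM in the control library (-1.18). Hoxb ratios were -0.15 and -0.08 and Hoxd ratios -0.47 and -0.21 in the anti-PD-1 and control libraries. Of 27 HOX genes measured in both libraries, 10 were over 2-fold lower in tumour cells in both, where 5.44% of all genes were. They were Hoxa3, Hoxa4, Hoxa5, Hoxa10, Hoxa11, Hoxb3, Hoxc4, Hoxc5, Hoxc6 and Hoxc9. The count was 1 of 15 measured genes when tumour cells were chosen without Hmga2 and Wnt7b, and 1 of 10 with thinned cells. In all, 21 of 27 lay below 0 in both libraries, where 31.3% of all genes did. Hoxb9 was the 1 gene over 2-fold higher, where 7.46% of all genes were. In fibroblasts 25 of 39 HOX genes reached 5 CPM in both libraries, where 53.6% of all genes did.

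Hoxa3 had 3.13 CPM in tumour cells and 27.1 CPM in fibroblasts of the anti-PD-1 library (log2 ratio -3.11, interval -3.49 to -2.72) and 7.17 and 22.4 CPM in the control library (-1.64). Hoxa5 had 12.6 CPM in anti-PD-1 and 12.3 CPM in control fibroblasts, and Hoxa9 had 19.8 and 25.2 CPM. The fibroblast levels of these genes overlapped between the libraries within their intervals, unlike those in tumour cells. Hoxa4 had 6.10 and 6.72 CPM, Hoxa6 10.7 and 8.40 CPM, Hoxa7 14.9 and 8.96 CPM and Hoxa10 9.53 and 12.9 CPM. Hoxa11, with too few UMIs to pass the 100 UMI limit, was lower in the anti-PD-1 library, with 11.8 CPM in anti-PD-1 and 21.3 CPM in control fibroblasts, on 31 and 38 UMIs (log2 ratio -0.85, interval -1.58 to -0.12).

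Hoxc6, which fibroblasts of the trunk use, had 81.0 CPM in tumour cells and 175 CPM in fibroblasts of the anti-PD-1 library (log2 ratio, tumour over fibroblast, -1.11) and 70.7 and 177 CPM in the control library (-1.33). Hoxc4 had 30.9 CPM in anti-PD-1 and 13.4 CPM in control fibroblasts, Hoxc5 had 48.8 and 29.7 CPM and Hoxc9 had 30.5 and 21.3 CPM. Hoxc8 had 26.7 and 31.9 CPM and Hoxc10 39.7 and 22.9 CPM. Fibroblasts exceeded tumour cells of their own library for each of these except Hoxc10 in the control library, where tumour cells had 25.3 CPM. Hoxb3 had 9.53 CPM in anti-PD-1 and 6.16 CPM in control fibroblasts. Hoxb9 had 2.29 CPM in anti-PD-1 and 3.92 CPM in control fibroblasts, on 6 and 7 UMIs, below the tumour level, but with each cell given the same weight it no longer passed 2-fold in both libraries.

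**Figure D4:**
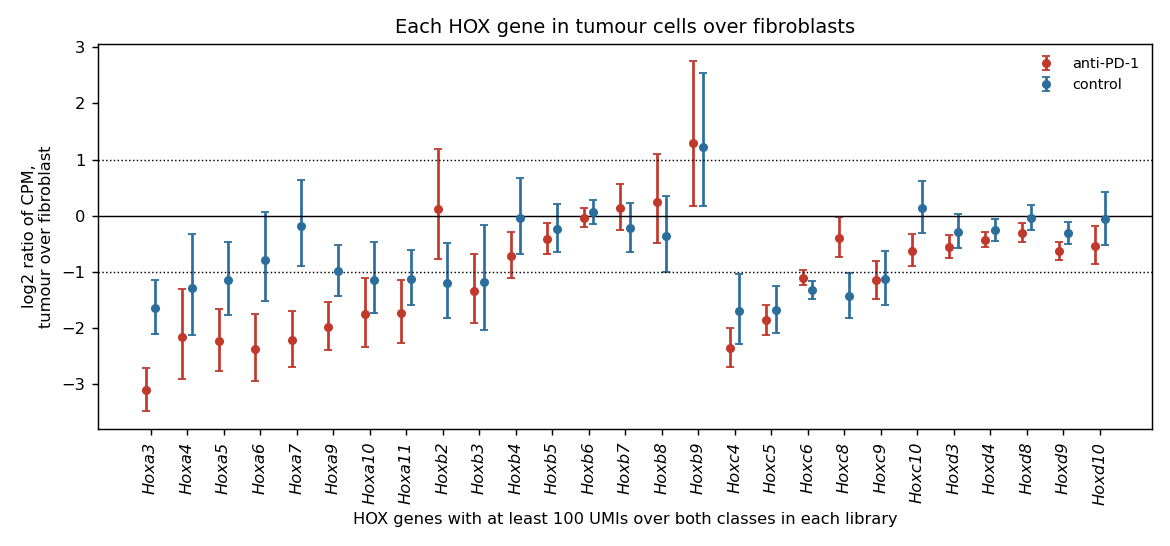
Log2 ratio of CPM, tumour cells over fibroblasts, for the 27 HOX genes with at least 100 UMIs in each library, the anti-PD-1 point left of the control point; bars are exact 95% intervals and dotted lines mark 2-fold. Hoxa3 lies at -3.11 and -1.64, Hoxc4 at -2.36 and -1.69, and Hoxb9 stands highest at 1.30 and 1.22.

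Between the libraries, fibroblasts did not show the Hoxa difference of the tumour cells. Their Hoxa sums of 125 and 123 CPM gave a log2 ratio of anti-PD-1 over control of 0.02 (interval -0.23 to 0.27), against -1.23 (-1.30 to -1.16) in tumour cells. Hoxc and Hoxd were higher in anti-PD-1 fibroblasts, at 0.24 and 0.35. Of 14 measured genes, 1 was over 2-fold higher (Hoxc4, 1.20), where 0.355% of all genes were, and 0 were over 2-fold lower, where 2.90% of all genes were. Hoxc10 was higher at 0.79, Hoxc5 at 0.72, Hoxb5 at 0.71, Hoxd3 at 0.55 and Hoxd4 at 0.51, each with an interval above 0. Hoxb5 had 43.8 CPM in anti-PD-1 and 26.9 CPM in control fibroblasts, Hoxd3 76.3 and 52.1 CPM and Hoxd4 179 and 126 CPM. The level intervals of the libraries overlapped for Hoxb6 at 104 and 96.8 CPM, Hoxd8 at 111 and 93.5 CPM and Hoxd9 at 140 and 128 CPM. They also overlapped for Hoxd10 at 29.0 and 21.8 CPM, on 76 and 39 UMIs, too few to call its levels close. Hoxb4 had 20.2 and 11.2 CPM, Hoxb7 19.4 and 25.7 CPM, Hoxb2 3.81 and 11.8 CPM and Hoxb8 5.72 and 11.2 CPM, all on fewer than 100 UMIs, and were not compared. These values rest on 293 and 169 cells.

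Endothelial cells had a different balance, with more Hoxb and less Hoxc than tumour cells. They were few, 26 in the anti-PD-1 and 57 in the control library, with 192 and 1049 HOX UMIs in all. Hoxb summed to 605 CPM in endothelial and 188 CPM in tumour cells of the anti-PD-1 library (log2 ratio 1.68, interval 1.35 to 1.99) and to 382 and 183 CPM in the control library (1.06, 0.91 to 1.22). Hoxc summed to 66.4 and 160 CPM in the anti-PD-1 library (-1.27) and 97.4 and 131 CPM in the control library (-0.43). Of 27 measured HOX genes, 7 were over 2-fold higher in endothelial than in tumour cells in both libraries, where 7.54% of all genes were. The 7 were Hoxa3, Hoxa5, Hoxa6, Hoxb3, Hoxb4, Hoxb5 and Hoxb9. Hoxa6 rested on 1 UMI in the anti-PD-1 endothelial cells, with an interval of its log2 ratio from -3.47 to 4.33, and on 20 UMIs in the control cells. Genes with 0 UMIs in the anti-PD-1 endothelial cells, such as Hoxa10 and Hoxc9, could not be called lower, since 0 UMIs allows a level above that of tumour cells.

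Hoxa3 and Hoxb3 promote blood vessel growth in endothelial cells in earlier work in mouse and human cells. Hoxa3 had 36.9 CPM in endothelial cells and 3.13 CPM in tumour cells of the anti-PD-1 library, and 26.3 and 7.17 CPM in the control library, on 5 and 24 endothelial UMIs. Hoxb3 had 51.6 CPM in anti-PD-1 and 9.85 CPM in control endothelial cells, on 7 and 9 UMIs. Hoxb4 had 88.5 and 38.3 CPM, Hoxb5 103 and 50.3 CPM and Hoxb9 66.4 and 19.7 CPM, all above the tumour levels. Hoxb6 had 229 CPM in anti-PD-1 and 186 CPM in control endothelial cells, and Hoxd4 had 317 and 204 CPM. Hoxb6 had 31 and 170 UMIs and Hoxd4 43 and 186 UMIs there. Hoxb7 had 22.1 CPM in anti-PD-1 and 52.5 CPM in control endothelial cells and Hoxb8 29.5 and 16.4 CPM. Hoxa5 had 36.9 and 20.8 CPM and Hoxa6 7.37 and 21.9 CPM. At the tail end Hoxa9, Hoxa10 and Hoxa11 had 0 UMIs in anti-PD-1 endothelial cells, which allows up to 27.2 CPM. They had 10, 2 and 11 UMIs in control endothelial cells. Hoxd3 had 36.9 CPM in anti-PD-1 and 75.5 CPM in control endothelial cells, Hoxd8 162 and 119 CPM, Hoxd9 66.4 and 143 CPM and Hoxd10 22.1 and 13.1 CPM. Of the Hoxc genes, Hoxc6 was at 51.6 and 51.4 CPM, Hoxc10 at 14.7 and 18.6 CPM and Hoxc8 at 0 UMIs and 10.9 CPM. The interval of control Hoxc6 (37.8 to 68.4) lay below its tumour level of 70.7 CPM. The intervals of the other values named here held the tumour level, so these genes could not be called lower one by one. Of 39 HOX genes 18 reached 5 CPM in endothelial cells of both libraries, where 52.5% of all genes did. Of 7 pericyte and smooth muscle markers 5 were detected in anti-PD-1 endothelial cells and 7 in control endothelial cells, with summed levels of 214 and 360 CPM, and 6 and 11 of 12 fibroblast markers, with 1032 and 746 CPM, and their part in these levels was not tested.

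Immune cells had the least HOX RNA, with 138 CPM in the anti-PD-1 and 221 CPM in the control library. Of 27 HOX genes measured in both libraries, 25 were over 2-fold lower in immune than in tumour cells in both, where 23.2% of all genes were. These 25 stood at 4.65% to 49.1% of the tumour level in anti-PD-1 and 16.5% to 48.1% in control immune cells. Free RNA from tumour cells can give UMIs in other cells, and its part was not tested: the tumour markers Hmga2 and Wnt7b were at 9.66% and 9.42% of the tumour level in anti-PD-1 and 11.9% and 10.4% in control immune cells. Immune cells were required to lie below 500 CPM of those markers, which lowers these shares. In the anti-PD-1 library Hoxc8 at 4.65%, Hoxc5 at 8.17%, Hoxb9 at 8.39%, Hoxa11 at 8.84% and Hoxb5 at 9.09% of the tumour level were below the Hmga2 share. In the control library the lowest HOX share, 16.5%, was above the Hmga2 share. Of 39 HOX genes 9 reached 5 CPM in immune cells of both libraries, where 53.4% of all genes did, and 0 of 27 were over 2-fold higher than in tumour cells, where 14.3% were.

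Hoxb4 was the exception. It had 14.0 CPM in anti-PD-1 and 11.8 CPM in control immune cells, on 89 and 63 UMIs, which is 114% and 109% of its tumour level. The log2 ratio of immune over tumour cells was 0.19 (interval -0.14 to 0.50) in the anti-PD-1 and 0.13 (-0.27 to 0.49) in the control library, and both intervals spanned 0. Hoxb3, its neighbour, stood at 62.4% and 96.8% of the tumour level, on 15 and 14 UMIs. Hoxb4 had 86 UMIs in 1564 anti-PD-1 and 56 UMIs in 1331 control cells with myeloid markers, and 0 and 4 UMIs in 128 and 194 lymphoid cells. Myeloid cells also held most immune-cell UMIs of all genes, 5985923 of 6371089 in the anti-PD-1 and 4751676 of 5336311 in the control library. In the control library Hoxb4 was at 11.8 CPM in myeloid and 10.4 CPM in lymphoid cells, so these counts do not show a myeloid trait. In anti-PD-1 lymphoid cells 0 UMIs allows up to 16.8 CPM, beside 14.4 CPM in anti-PD-1 myeloid cells, so a difference between them was not detectable at this depth. In cells thinned to 1500 UMIs, 1.99% of anti-PD-1 and 1.29% of control immune cells held a Hoxb4 UMI, and 1.93% and 1.74% of tumour cells did. Its neighbours on the other side were lower, with Hoxb5 at 2.98 and 6.75 CPM in anti-PD-1 and control immune cells and Hoxb6 at 11.8 and 16.7 CPM, against 32.8 and 22.9 CPM and 102 and 101 CPM in tumour cells.

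**Figure D5:**
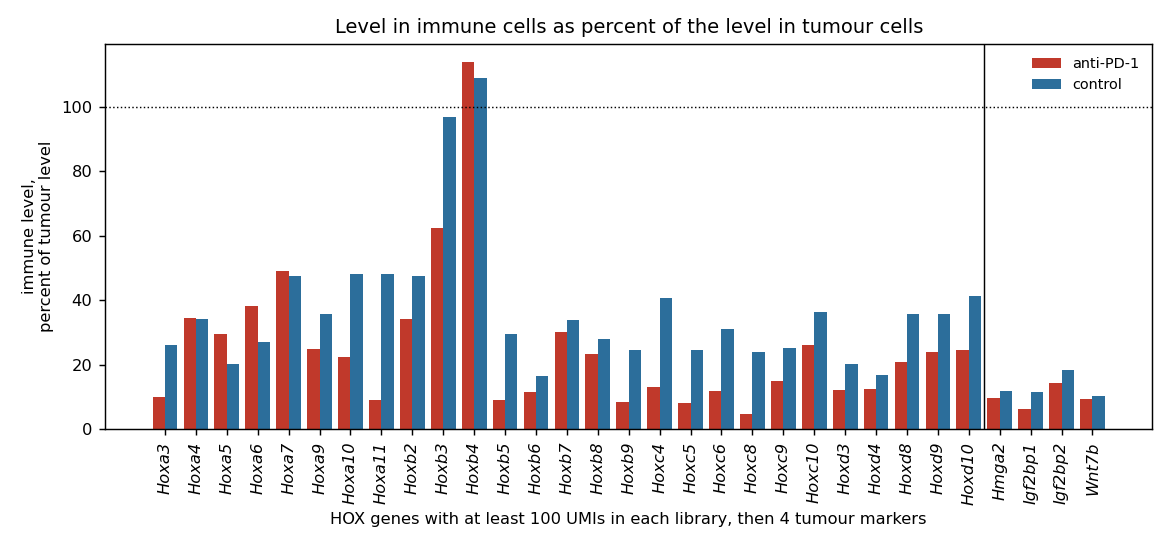
Level in immune cells as a percent of the level in tumour cells of the same library for 27 HOX genes and 4 tumour markers (x axis), anti-PD-1 bars left of control bars; the dotted line is 100%. Hoxb4 stands at 114% and 109% and Hoxb3 at 62.4% and 96.8%, and Hmga2 at 9.66% and 11.9%.

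Between the libraries, HOX RNA in immune cells was lower in anti-PD-1, with a log2 ratio of -0.68 (interval -0.81 to -0.55) over all HOX genes, -1.65 for Hoxa and -0.35 for Hoxb. Of 6 measured genes 1 was over 2-fold lower, Hoxc6 with 9.57 CPM in anti-PD-1 and 21.9 CPM in control immune cells (-1.20), where 1.82% of all genes were, and 0 were over 2-fold higher, where 0.617% were. Hoxd8 had 18.8 and 32.4 CPM (-0.78), Hoxd9 21.5 and 36.7 CPM (-0.77) and Hoxd4 16.6 and 17.6 CPM (-0.08), while Hoxb4 was at 0.24. Fibroblast markers moved the same way, at 121 CPM in anti-PD-1 and 203 CPM in control immune cells, as did tumour markers at 136 and 155 CPM and red cell genes at 75.8 and 856 CPM, and their part in the result was not tested. Under other settings the HOX sum in immune cells lay between 121 and 200.3 CPM in the anti-PD-1 library and between 146 and 310.2 CPM in the control library, highest where tumour cells were set without Hmga2 and Wnt7b. Without cells of over 3 times the median UMI count the control sum was 149.8 CPM (interval 137.3 to 163.2), and with thinned cells 146 CPM (128 to 165). Under both settings the anti-PD-1 sum stayed within its interval around 138 CPM. Both control intervals held 138 CPM, so most of the gap was absent there and the ratio of -0.68 depended on the setting. Hoxd3 had 6.28 and 8.62 CPM, Hoxd10 4.87 and 8.62 CPM, Hoxb7 6.44 and 7.50 CPM and Hoxc10 6.75 and 9.18 CPM. The other HOX genes that reached 10 UMIs in immune cells, among them Hoxa3, Hoxa7, Hoxa9, Hoxa10, Hoxa11, Hoxb2 and Hoxb8, had 2 to 13 UMIs in anti-PD-1 and 10 to 25 UMIs in control immune cells.

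The partners and regulators of HOX proteins were compared between the libraries in tumour cells. None of the measured members of the lists passed 2-fold between anti-PD-1 and control tumour cells (4 PBX, 5 MEIS and PREP, 7 trithorax, 11 Polycomb, 9 position and 5 other homeobox genes measured), where 3.77% of all genes were over 2-fold lower and 0.75% over 2-fold higher, so a count of 0 is near the share over all genes. Kmt2a, the MLL methyltransferase that keeps HOX genes active, had 355 CPM in anti-PD-1 and 285 CPM in control tumour cells. Meis1, the Hoxa9 partner, had 42.8 and 44.9 CPM, and the Polycomb methyltransferase Ezh2 had 76.3 and 79.7 CPM.

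Against fibroblasts, the partner genes split. Meis2 had 42.4 CPM in tumour cells and 140 CPM in fibroblasts of the anti-PD-1 library and 41.7 and 90.1 CPM in the control library. Pbx3, by contrast, had 24.9 CPM in tumour cells and 18.7 CPM in fibroblasts of the anti-PD-1 library, and 25.6 and 14.0 CPM in the control library. Ezh2 had 37.0 CPM in anti-PD-1 and 39.7 CPM in control fibroblasts, below the tumour level, and its relative Ezh1 had 111 and 80.6 CPM in fibroblasts against 52.0 and 47.1 CPM in tumour cells. Wdr5, a trithorax subunit, had 136 and 152 CPM in tumour cells and 61.8 and 76.7 CPM in fibroblasts. The mesenchymal homeobox gene Prrx1 had 89.8 CPM in tumour cells and 237 CPM in fibroblasts of the anti-PD-1 library, and 112 and 296 CPM in the control library.

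Several genes that mark position were near 0. None of the 8 ParaHox and Evx genes, the relatives of HOX genes, reached 5 CPM in both libraries of any class, where 60.2% of all genes did in at least 1 class. Nkx2-1, the lung and thyroid factor, had 0 UMIs in anti-PD-1 tumour cells and 0.148 CPM in control tumour cells, and the lung and limb genes Tbx4 and Tbx5 had at most 0.0844 CPM. The hindlimb gene Pitx1 had 0.0202 and 0.0527 CPM. Of the 16 position genes, 9 reached 5 CPM in both libraries of a class, close to the 60.2% of all genes. Twist1 had 92.7 CPM in anti-PD-1 and 126 CPM in control tumour cells, Tbx15 had 43.2 and 32.8 CPM, and Foxf1 was in endothelial cells at 14.7 and 30.6 CPM against at most 0.316 CPM in tumour cells. Of the other homeobox genes, Shox2, a limb gene, had 18.9 and 15.1 CPM in tumour cells, and Irx3 had 22.1 and 15.3 CPM in endothelial cells.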

How the data were processed

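Single cells of 2 tumour samples were profiled with a 10x Genomics Flex probe kit per the labels, which also name a 3' protocol. The deposited values are raw UMI counts per gene and cell, made with Cell Ranger, version 9.0.1 per the file headers and 7.0.1 on mm10 per the submitters' processing notes. The libraries held 9423 barcodes and 115407230 UMIs (anti-PD-1) and 8441 barcodes and 113268618 UMIs (control). Barcodes under 300 detected genes or over 20% mitochondrial RNA were dropped, which left 9422 and 8395 cells. A class needed 3 marker UMIs and the stated CPM, and cells past several cuts were left out, except tumour cells past the fibroblast cut. Fibroblast, endothelial and immune cells also needed under 500 CPM of tumour markers. No doublet caller was run. A doublet check left out cells over 3 times their class's median UMI count.

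UMIs were summed per class and library, and levels are counts per 1000000 UMIs (CPM). They depend on probe binding, so genes are not ranked against each other. Ratios were given for genes with at least 100 UMIs over both sides. Intervals are 95% exact Poisson for levels, conditional binomial for ratios and Clopper-Pearson for shares, and cover counting error only. A count of 0 allows levels up to the upper end of its exact Poisson interval. On simulated counts for tumour cells of anti-PD-1 over control (11975 genes, 200 changed), 95.2% of the intervals held the true ratio. With 1 library per group no test was made. In these sums, fewer cells with a gene and less RNA per cell cannot be told apart except where shares of cells are given.

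The members, gene lists and alternatives were chosen with earlier results of these data known. All HOX genes were described, with values in full for those at 5 CPM or more in tumour cells or fibroblasts of both libraries, and for most of those with 10 UMIs in endothelial or immune cells. Of the cofactor lists, members with wide gaps between tumour cells and fibroblasts were named, and Meis1, Kmt2a, Twist1, Shox2 and the genes near 0 were added after their values were seen. Python 3.11.15, numpy 2.4.6, scipy 1.17.1, pandas 2.3.3 and matplotlib 3.10.9 were used. Alternatives were other cell filters, marker cuts, weights, thinning, tumour markers and UMI minimums. Bins of fibroblast marker level, their equal weighting and leaving out shared barcodes were chosen after seeing the data. Values of some genes are not reported here.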

Additional observations from a re-analysis of the deposited data

Results flagged for a closer look

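For 5 HOX measures the anti-PD-1 over control log2 ratios had intervals on opposite sides of 0 in immune cells and in other classes. The difference between classes was not tested. Hoxc6 was at 0.19 in tumour cells and -1.20 in immune cells. All HOX genes summed were at 0.046 in tumour cells, 0.24 in fibroblasts, 0.30 in endothelial cells and -0.68 in immune cells. Without cells of over 3 times the median UMI count the control immune sum was 149.8 CPM (interval 137.3 to 163.2), not 221 CPM. That interval held the main anti-PD-1 immune sum of 138 CPM, so the immune difference depended on the setting. Summed Hoxb was at 0.045 in tumour cells, 0.66 in endothelial cells and -0.35 in immune cells. Summed Hoxc was at 0.29 in tumour cells, 0.24 in fibroblasts and -0.96 in immune cells. Summed Hoxd was at 0.087 in tumour cells, 0.35 in fibroblasts and -0.62 in immune cells.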

How the results depend on the processing

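No paired analysis was possible because each group is 1 library. Of the 29 HOX genes compared between libraries in tumour cells, 24 kept their sign in each alternative that gave the gene a value (9 to 11 per gene). Of the 27 and 28 compared with fibroblasts in the anti-PD-1 and control libraries, 24 and 18 did (7 to 10 per gene). With thinned cells 18 of the 29 genes had enough UMIs, and 14 without Hmga2 and Wnt7b. Keeping all deposited barcodes left all classes unchanged. Classes rest on marker cuts in a continuous range, endothelial cells number 26 and 57, and thinning leaves few genes with 100 UMIs. The causes of the shifts below were not tested, except that thinned cells and the narrower tumour class leave fewer genes to compare.

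Summed HOX CPM moved as follows, the anti-PD-1 value before the control value where both moved. Tumour cells had 745 and 699 with cuts doubled, 775 and 752 with cuts halved, 781 and 765 without cells of over 3 times the median UMI count, 826 and 809 with equal cell weights, 820.5 and 805 with thinned cells, 751 and 726 without cells past the fibroblast cut, and 825 (anti-PD-1) with tumour cells set without Hmga2 and Wnt7b. Anti-PD-1 fibroblasts had 1143 with cuts doubled, 1143 with cuts halved and 1108 without Hmga2 and Wnt7b. Control fibroblasts had 917 with cuts halved, 1141 without high-UMI cells, 1149 with equal weights and 1083 thinned. Anti-PD-1 endothelial cells had 1023 with cuts doubled, 1845 with cuts halved, 1718 without high-UMI cells, 1649 thinned and 1056 without Hmga2 and Wnt7b. Control endothelial cells had 1337 with cuts halved, 1354 without high-UMI cells, 1290.0 with equal weights, 1407 thinned and 1036 without Hmga2 and Wnt7b. Anti-PD-1 immune cells had 121 with cuts halved and 200.3 without Hmga2 and Wnt7b. Control immune cells had 158 with cuts doubled, 181 with cuts halved, 149.8 without high-UMI cells, 177 with equal weights, 146 thinned and 310.2 without Hmga2 and Wnt7b.

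The Hoxa share of HOX UMIs in tumour cells was 2.57% and 7.21% with cuts doubled, 3.61% (anti-PD-1) with cuts halved, 3.47% and 8.31% without high-UMI cells, 3.64% and 8.57% with equal weights, 8.86% (control) thinned, 3.07% (anti-PD-1) without cells past the fibroblast cut, and 5.60% and 10.04% without Hmga2 and Wnt7b.

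Tumour log2 ratios of anti-PD-1 over control moved too. Hoxa was at -1.40 with cuts doubled, -1.13 with cuts halved, -1.34 thinned, -1.31 without cells past the fibroblast cut, -1.04 with bins of fibroblast marker level weighted equally and -0.67 without Hmga2 and Wnt7b. Hoxb was at 0.0027 with equal bins and 0.15 without Hmga2 and Wnt7b. Hoxc was at 0.38 with cuts doubled, 0.11 with equal bins and 0.51 without Hmga2 and Wnt7b. Hoxd was at 0.12 with cuts doubled, 0.051 with equal weights, 0.051 thinned, 0.024 with equal bins and 0.17 without Hmga2 and Wnt7b. All HOX genes were at 0.091 with cuts doubled, 0.030 without high-UMI cells, 0.030 with equal weights, 0.028 thinned and 0.17 without Hmga2 and Wnt7b, and turned to -0.037 with equal bins.

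HOX genes over 2-fold lower in anti-PD-1 tumour cells numbered 5 with cuts halved, 1 thinned and 0 without Hmga2 and Wnt7b, where 1 was higher. Over 2-fold lower in tumour cells than in fibroblasts were 1 thinned and 1 without Hmga2 and Wnt7b, and over 2-fold higher were 0 with equal weights, 0 thinned and 0 without Hmga2 and Wnt7b.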

Other observations

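Among single tumour cells with at least 5000 UMIs (5317 anti-PD-1, 3926 control), log levels of 6832 genes were correlated with the log summed Hoxa level across cells. Ranked by the weaker of both libraries' Pearson correlations, as a description chosen after the values were seen, the highest were 0.38 in anti-PD-1 and 0.50 in control cells for the collagen gene Col3a1, 0.35 and 0.44 for the growth factor gene Ptn, and 0.34 and 0.36 for the collagen-modifying enzyme Loxl2. The lowest included Atg9b at -0.30 and -0.38, Syne3 at -0.28 and -0.27 and the integrin gene Itga6 at -0.25 and -0.34. The cells share a library, and depth varies between them. They include 238 anti-PD-1 and 171 control cells with 2000 CPM or more of fibroblast markers, whose part in these correlations was not tested.

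Cells outside the 4 classes, 1532 in the anti-PD-1 and 2288 in the control library, held HOX RNA at 764 and 790.0 CPM. Their Hoxa sums were 57.1 CPM in the anti-PD-1 and 89.3 CPM in the control library (log2 ratio -0.65, interval -0.82 to -0.48).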
